A study of Mus musculus with 26 samples.

Results

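The major urinary protein genes described here are Mup3, Mup7, Mup11, Mup12, Mup17, Mup20 and Mup21, taken by symbol from the annotated count table as 7 of its 54532 gene rows. The table held 48 rows whose symbol starts with Mup, of which 27 are named as pseudogenes and 21 are not. Liver RNA was sequenced from 26 C57BL/6 mice gavaged with benoxacor, a safener added to herbicide products, on 3 days in a row, with livers collected 24 hours after the last dose. Doses were 0, 0.5, 5 and 50 mg/kg, given to 5, 5, 8 and 8 separate mice. All mice, those at 0 mg/kg included, shared the strain, the gavage schedule and an acclimatisation (4 to 8 weeks) in which bedding was mixed to even out the microbiome. Mouse numbers formed 2 runs, from 601 (15 mice: 4, 3, 4 and 4 at the rising doses) and from 619 (11 mice: 1, 2, 4 and 4), and no label explains the gap between them. Within a run the numbers rose with dose, so dose and anything that follows the number order cannot be told apart. The same 5 mice at 0 mg/kg serve all 3 comparisons with that dose, and 1 of them is in the run from 619.

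Major urinary proteins are lipocalins, small barrel-shaped carriers that the mouse liver secretes into blood and that pass into urine, where they bind and slowly release volatile pheromones. Their genes lie in a cluster of recent duplicates. In mouse liver the family is known for higher expression in males than in females, which follows the pulsed male pattern of growth hormone release acting through the transcription factor STAT5b. Mup20 encodes darcin, a protein that female mice respond to in male scent marks. Mup7, Mup11, Mup12 and Mup17 belong to the near-identical central group of the cluster, while Mup3, Mup20 and Mup21 are more diverged.

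All 7 genes lie on the minus strand of chromosome 4 in mm10 (GENCODE M21), within a stretch of Mup rows from 59956804 to 62150863. Mup7 (ENSMUSG00000073842) spans chr4:60066469-60070475, Mup11 (ENSMUSG00000073834) chr4:60658466-60662411, Mup12 (ENSMUSG00000094793) chr4:60737383-60741326 and Mup17 (ENSMUSG00000096688) chr4:61591929-61595871. Mup20 (ENSMUSG00000078672) spans chr4:62050234-62054158, Mup3 (ENSMUSG00000066154) chr4:62083476-62087342 and Mup21 (ENSMUSG00000066153) chr4:62147932-62150863. Each is annotated as protein coding.

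The sequences set how far the 7 counts can be read apart. Coding sequences of the 6 pairs among Mup7, Mup11, Mup12 and Mup17 were 98.3% to 99.3% identical, and the 15 other pairs were 82.1% to 94.7% identical, with Mup3 and Mup21 the closest of these. The following 90 coding bases, from GENCODE M21, start at base 133 of the Mup7 coding sequence, counted from the first base of the start codon. Of the windows of this length that align without gaps in all 7 genes, this one has the most differences from Mup7 over Mup11, Mup12 and Mup17. Capitals mark bases unlike Mup7.

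Mup7: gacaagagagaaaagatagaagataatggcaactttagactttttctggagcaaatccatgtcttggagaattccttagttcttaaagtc
Mup11: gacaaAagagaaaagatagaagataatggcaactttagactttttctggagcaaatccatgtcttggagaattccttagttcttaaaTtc
Mup12: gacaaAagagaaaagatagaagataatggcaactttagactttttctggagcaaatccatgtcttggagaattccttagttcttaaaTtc
Mup17: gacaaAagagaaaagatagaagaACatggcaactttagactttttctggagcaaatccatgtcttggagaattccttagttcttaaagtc
Mup20: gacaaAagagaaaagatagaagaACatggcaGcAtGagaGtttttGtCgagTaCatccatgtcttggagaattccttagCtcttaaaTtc
Mup3: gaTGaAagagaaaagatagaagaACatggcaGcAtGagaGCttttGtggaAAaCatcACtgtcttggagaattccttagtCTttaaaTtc
Mup21: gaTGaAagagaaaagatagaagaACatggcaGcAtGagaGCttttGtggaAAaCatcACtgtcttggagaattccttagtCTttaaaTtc

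Even in this most divergent stretch Mup11 and Mup12 differed from Mup7 at 2 bases and were identical to each other, and Mup17 differed at 3. Mup20 differed at 13 bases, and Mup3 and Mup21 at 19 each, with the same letters in both. Of all 150-base windows of a gene's annotated transcripts, the share found in no other gene's transcripts was 32.9% for Mup7, 35.2% for Mup11, 24.1% for Mup12 and 59.6% for Mup17. It was 68.9% for Mup20, and for Mup3 and Mup21 every such window was found in no other gene. With 50-base windows the share was 13.3% for Mup7 and 86.7% for Mup3, with the others between. Whether reads that fit several copies were counted, shared or dropped is not given in the sources used here, and neither is the strand setting, so the counts of the 4 central genes are uncertain as single genes.

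Libraries held 5433074 to 9088626 counts (median 7105531). Sex is not among the labels. Xist, made from the inactive X chromosome of females, was at or under 2.65 CPM (a gene's count scaled to its library's total) in all 26 mice, and the Y-linked Ddx3y was between 59.0 and 238 CPM. Hepatocyte transcripts were abundant in every library, with the albumin gene Alb at 3.16% to 10.2% of all counts. Mouse 628 (5 mg/kg) carried transcripts of steroid-producing cells, with the summed level of the 7 markers at 3560 CPM there, against 2.24 to 18.4 CPM in the mice of the other 3 doses. All 7 members passed the filter on low counts, which left 14415 genes.

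Summed over the 7 genes, Mup reads made up 4.82% ± 1.82 of all counts (SD, n = 26), between 0.621% in mouse 626 (5 mg/kg) and 8.75% in mouse 605 (0.5 mg/kg). The second-lowest share was 2.59%, in mouse 624 (0.5 mg/kg). The 48 Mup rows together made up 5.69% ± 2.19 (n = 26), of which the 7 members held a median of 85.4%.

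Levels per kilobase of exon adjust for length and not for reads that fit several copies, so the order below holds for counts as assigned. On that scale Mup3 and Mup7 led. The median level over the 26 mice was 20440 CPM per kilobase for Mup3, 16350 for Mup7, 5269 for Mup20, 1628 for Mup17, 715.7 for Mup21, 412.5 for Mup11 and 181.9 for Mup12. Mup3 lay above Mup7 in 14 of 26 mice, so the order of these 2 was not fixed, with a ratio between 0.582 and 18.1. The other neighbours kept their order in 22 to 26 of 26 mice, and the 4 mice that broke the order of Mup21 over Mup11 made that the loosest of them.

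The share of all counts overlapped between doses. In the mice at 0 mg/kg it was 6.29%, 6.69%, 4.93%, 5.11% and 6.80%. In those given 0.5 mg/kg it was 8.75%, 5.34%, 6.43%, 3.47% and 2.59%. The last value at 0 mg/kg and the last 2 at 0.5 mg/kg come from the run from 619. In the 5 mg/kg group the lowest share was 0.621%, the median 3.46% and the highest 7.25% (n = 8). In the 50 mg/kg group the lowest was 2.73%, the median 4.22% and the highest 6.82% (n = 8). The 5 mice at 0 mg/kg lay close together, and every other dose held mice below and above their range. Fewer hepatocytes in a sample and less Mup RNA per hepatocyte cannot be told apart in bulk tissue.

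Over the 4 rising doses the mean share was 5.97% ± 0.882 (SD, n = 5), 5.32% ± 2.44 (n = 5), 3.96% ± 1.999 (n = 8) and 4.66% ± 1.403 (n = 8). Without mouse 626 the mean at 5 mg/kg was 4.44% ± 1.59 (n = 7), and without mice 626 and 628 it was 4.66% ± 1.63 (n = 6). By run, the share averaged 4.11% ± 1.95 in the run from 619 (n = 11), 4.46% ± 1.65 there without mouse 626 (n = 10), and 5.34% ± 1.58 in the run from 601 (n = 15). Within the run from 601 the means were 5.76%, 6.84%, 4.77% and 4.38% at 0, 0.5, 5 and 50 mg/kg. In mice 619 and up the means were 6.80% (1 mouse), 3.03%, 3.15% and 4.95%, or 3.99% at 5 mg/kg without mouse 626, so the order of the doses was not the same in the 2 runs.

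**Figure D1:**
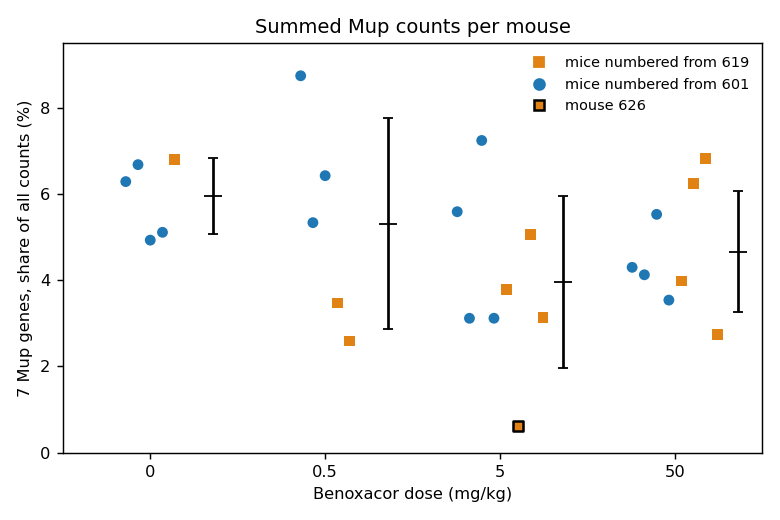
Share of all counts taken by the 7 Mup genes (percent) in each mouse by benoxacor dose, with symbols for the 2 runs of mouse numbers and bars for the mean and SD at each dose. Mouse 626 at 0.621% lies below the other 25 mice, which range from 2.59% to 8.75%.

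Single genes were then compared between doses on TMM-scaled CPM, in which library totals are adjusted for composition. Mup7, the most abundant of the central genes, had 18570, 26590, 17320, 23800 and 23160 CPM in the mice at 0 mg/kg. Those given 0.5 mg/kg had 40370, 26650, 28900, 15610 and 6870 CPM. Among mice given 5 mg/kg it had a lowest value of 289.8, a median of 14710 and a highest of 29290 CPM, and with 50 mg/kg these were 12960, 15610 and 25470 CPM (n = 8 each). At 0.5 mg/kg 3 mice lay above and 2 below the range of the mice at 0 mg/kg, the 3 in the run from 601 and the 2 in the run from 619. Of the 8 mice at 5 mg/kg 6 lay below that range, 1 above and 1 within it. Of the 8 mice at 50 mg/kg 5 lay below that range and 3 within it.

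Mup17, a central gene of intermediate level, had 2221, 2526, 1486, 2415 and 1620 CPM in mice of the 0 mg/kg group, and 4110, 2196, 1892, 1817 and 533.5 CPM with 0.5 mg/kg. With 5 mg/kg it spanned 19.54 to 2429 CPM with a median of 1099, and with 50 mg/kg 761.6 to 2345 CPM with a median of 945.7. At 50 mg/kg 6 of 8 mice lay below the lowest mouse at 0 mg/kg and 2 lay within the range. No other member had as many below at that dose. At 5 mg/kg 4 of 8 mice lay below that range and 4 within it for Mup17. Its log2 fold change at 50 against 0 mg/kg was -0.82 (95% interval -2.08 to 0.43), the largest of the 7 members there, and it did not pass the quasi-likelihood test of edgeR, adjusted over all genes by Benjamini-Hochberg (adjusted p = 0.987). Without mouse 626 it was -0.87 with an unadjusted p of 0.0417 and an adjusted p of 0.927 in edgeR, within a range of 0.767 to 1 over the alternatives tried. In the run from 601 alone it was -1.11, with an adjusted p of 0.767 in edgeR.

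Mup20, the gene of the pheromone protein darcin, had 9252, 7992, 6014, 4190 and 8723 CPM in the 0 mg/kg group, and 8000, 5416, 6701, 4521 and 3974 CPM in the 0.5 mg/kg group. The 5 mg/kg group spanned 701.3 to 8292 CPM with a median of 3584, and the 50 mg/kg group 2395 to 10120 CPM with a median of 4775. Of 8 mice given 5 mg/kg, 5 lay below the lowest mouse at 0 mg/kg and 0 above the highest, and of 8 given 50 mg/kg, 3 lay below and 1 above. At 5 against 0 mg/kg the log2 fold change was -0.80 (SE 0.37, 95% interval -1.57 to -0.036), the single member comparison with 0 mg/kg whose unadjusted p fell under 0.05 (adjusted p = 0.78 in edgeR). Without mouse 626 it was -0.66 (SE 0.32, adjusted p = 0.888 in edgeR), and the adjusted p was at least 0.533 under every alternative tried.

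Mup3, the most abundant member over all mice, had 26170, 24700, 23380, 16610 and 32820 CPM in the 0 mg/kg group. The 0.5 mg/kg group had 37620, 25770, 26880, 15810 and 15120 CPM. Given 5 mg/kg, mice spanned 5409 to 31880 CPM with a median of 14830, and given 50 mg/kg, 12480 to 35060 CPM with a median of 21830. The lowest 2 mice at 5 mg/kg, 626 and 628, had 5409 and 8137 CPM, and 3 of the 8 lay within the range of the mice at 0 mg/kg. The log2 fold change at 5 against 0 mg/kg was -0.52 (SE 0.31) and fell in size to -0.29 (SE 0.28) without mice 626 and 628. Neither value passed the test.

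The 3 members of lowest level per kilobase were Mup21, Mup11 and Mup12. Mup11 averaged 856 ± 252, 968 ± 552, 546 ± 328 and 706 ± 420 CPM over the 4 rising doses (SD, n = 5, 5, 8 and 8). Mup12 averaged 188 ± 28.0, 243 ± 181, 135 ± 83.4 and 172 ± 34.7 CPM over the same doses. Mup21 averaged 484 ± 170, 519 ± 205, 366 ± 187 and 458 ± 232 CPM. At every dose and for each of these genes some mice lay within the range of the mice at 0 mg/kg.

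**Figure D2:**
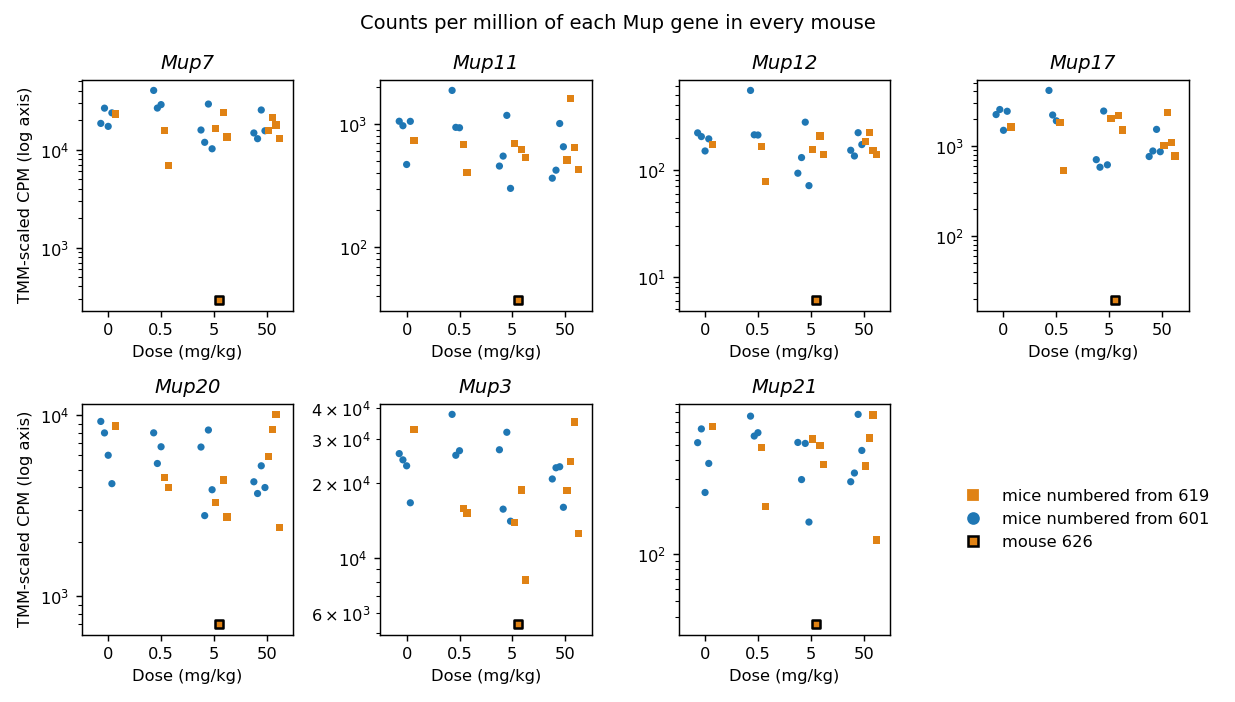
TMM-scaled CPM (log axis) of each Mup gene in every mouse by dose, with symbols for the 2 runs of mouse numbers. Mouse 626 is the lowest mouse in each of the 7 panels, and the other mice of all doses overlap.

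At 50 against 0 mg/kg 0 of 7 members passed the threshold of 0.05 on edgeR's adjusted p, where 1 of 14415 genes (0.00694%) passed, and 0 members had an unadjusted p under 0.05. All 7 had negative log2 fold changes, between -0.82 and -0.018 with a median of -0.17. Over all genes tested the median was 0.0054 and 48.9% were negative. The members can share reads and their levels moved together over mice, so their signs are not separate results. Mup3, Mup12 and Mup21 changed sign here in some of the fits leaving out 1 mouse. At 5 against 0 mg/kg 0 of 7 members and 0% of genes passed, and 7 of 7 had negative log2 fold changes from -0.80 to -0.38 with a median of -0.52, beside 48.1% negative over all genes. That median was -0.41 without mouse 626 and -0.29 without mice 626 and 628, with 7 of 7 negative in both. At 0.5 against 0 mg/kg 0 of 7 members and 0% of genes passed, with log2 fold changes from -0.33 for Mup20 to 0.37 for Mup12 and 5 of 7 positive, of which Mup7 (-0.063), Mup17 (-0.14) and Mup21 (-0.073) were negative when scaled by the library total alone. At 50 against 5 mg/kg 0 of 7 members and 0% of genes passed, and 6 of 7 were positive with a median of 0.37, or 5 of 7 with a median of 0.18 without mouse 626.

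In the dose-rank trend, a slope per step over the 4 doses, 0 of 7 members passed beside 0.0139% of genes (2 genes). All 7 slopes were negative, from -0.32 per step for Mup17 (SE 0.19, adjusted p = 1 in edgeR) to -0.050 for Mup21. In the run from 601 alone the Mup17 slope was -0.46 (unadjusted p = 0.0079 and adjusted p = 0.688 in edgeR) and in the run from 619 alone, with 1 mouse at 0 mg/kg, -0.039, and its adjusted p was between 0.688 and 1 over the alternatives tried. DESeq2 also called 0 of 7 members in each of these 5 comparisons, beside 3, 4, 3, 0 and 3 genes in the order given. Genes with an unadjusted p under 0.05 in edgeR numbered 737, 891, 1008, 699 and 614 in the same order, and held 0, 1, 0, 0 and 0 members. Because the 3 comparisons with 0 mg/kg share their mice, a shared sign among them is not separate evidence.

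**Figure D3:**
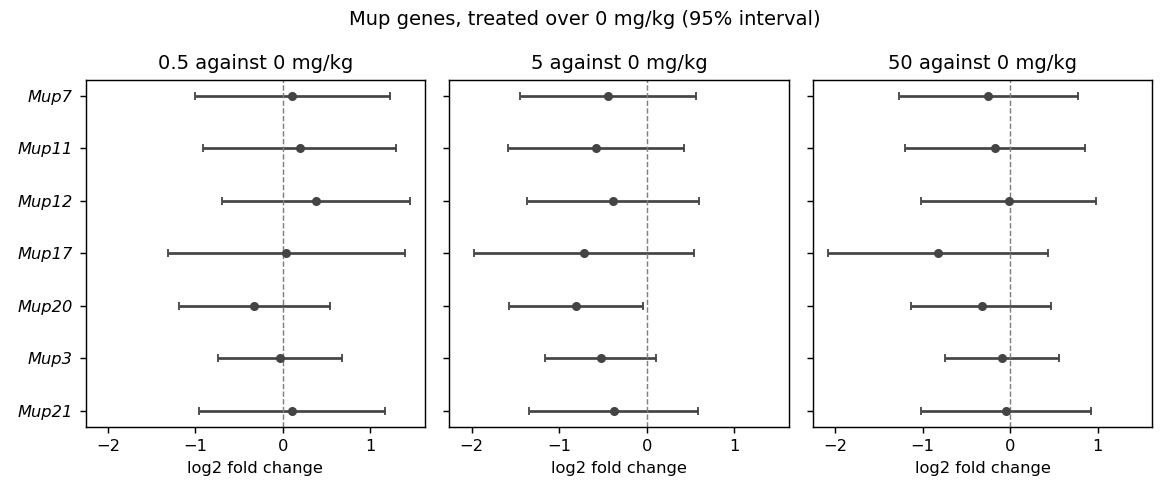
Log2 fold changes of the 7 Mup genes at each dose against 0 mg/kg, with 95% intervals from edgeR's quasi-likelihood fit over all 26 mice. All intervals but that of Mup20 at 5 mg/kg (-1.57 to -0.036) include 0.

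The 2 runs of mouse numbers were compared with dose in the fit. In the run from 619 against the run from 601, 7 of 7 members had negative log2 fold changes, from -0.37 for Mup7 to -0.0091 for Mup17 (0.018 when scaled by the library total alone). Their median was -0.27, and 0 of 7 passed beside 0.0902% of genes (13 genes) in edgeR. Without mouse 626, 5 of 7 were negative and the median was -0.14. DESeq2 called 108 genes between the runs and 0 members, and edgeR had 1151 genes and 0 members with an unadjusted p under 0.05. At 0.5 against 0 mg/kg the runs pointed in opposite directions. The log2 fold changes were negative for 7 of 7 members in the run from 619, with a median of -0.91 and 1 mouse at 0 mg/kg, and positive for 6 of 7 in the run from 601, with a median of 0.47. That difference was not tested.

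Between the 2 doses with 4 mice in each run, the difference between runs was tested as an interaction on 13418 genes. The change at 50 against 5 mg/kg was larger in the run from 619 than in the run from 601 for Mup20 by 1.57 on the log2 scale (SE 0.67, adjusted p = 0.982 in edgeR), the single interaction of a member with an unadjusted p under 0.05. For Mup3 it was 1.05 (SE 0.55, adjusted p = 0.982 in edgeR). Mice 619 and up averaged 6697 ± 3350 CPM of Mup20 with 50 mg/kg and 2780 ± 1550 CPM with 5 mg/kg (SD, n = 4 each). Mice of the earlier run averaged 4309 ± 678 CPM with 50 mg/kg and 5409 ± 2520 CPM with 5 mg/kg (n = 4 each). Of the 7 members 0 passed, as did 0% of genes in edgeR and 0 genes in DESeq2, and 656 genes had an unadjusted p under 0.05. Without mouse 626 the Mup20 value was 1.25 and the Mup3 value 0.82, while Mup7 had -0.14 without that mouse and 0.27 with it.

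Mouse 626, given 5 mg/kg and replicate 6 of that dose, was the lowest of the 26 mice for 7 of 7 members. Mup17 had 19.54 CPM there, against a median of 1522 CPM in the other 25 mice, 77.9-fold lower. Mup7 had 289.8 CPM against 17320 (59.8-fold), Mup12 6.06 against 172 (28.4-fold) and Mup11 37.4 against 654.5 (17.5-fold). Mup21 had 35.9 CPM (13.7-fold lower than that median), Mup20 701.3 against 5259 (7.5-fold) and Mup3 5409 against 22960 (4.24-fold).

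The 4 central genes were thus 17.5- to 77.9-fold lower and the 3 diverged ones 4.24- to 13.7-fold lower in mouse 626. Among the other 25 mice the highest and lowest values of a member differed by 4.22-fold for Mup20 to 7.75-fold for Mup12. Against the lowest of those 25 mice, mouse 626 was 27.3-fold lower for Mup17, 23.7-fold for Mup7 and 1.5-fold for Mup3. Of the summed member reads Mup3 took 83.2% in mouse 626, against 30.2% to 55.6% in the other 25, and Mup7 took 4.46%, against 25.3% to 50.2%. Other rows with reads in mouse 626, neither members nor named as pseudogenes, were compared with the median of the other mice as a share of all counts. Mup15, with 44 reads in mouse 626, was the most extreme of these at 345-fold lower. Mup1 (48.4-fold), Mup14 (31.3-fold), Mup18 (11.8-fold) and Mup19 (10.8-fold) came between. Mup2 (4.99-fold), Mup9 (4.98-fold) and Mup10 (4.91-fold, the least) were lower by about as little as Mup3. Mouse 626 was the lowest mouse for 6.24% of all genes tested, and 1 mouse among 26 supports no test.

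Short stretches upstream of Mup17 and Mup3, the members with the largest and the smallest fold reduction in mouse 626, are printed below from RefSeq (GRCm38.p6), each running 5′ to 3′ from 180 bases before to 20 bases after the annotated start on the minus strand. Capitals mark 2 words searched on both strands over the whole promoter windows of the table, TATATAA and AATCAATA, which do not overlap here and were chosen after the sequences had been seen.

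Mup17 (chr4:61595813-61596012): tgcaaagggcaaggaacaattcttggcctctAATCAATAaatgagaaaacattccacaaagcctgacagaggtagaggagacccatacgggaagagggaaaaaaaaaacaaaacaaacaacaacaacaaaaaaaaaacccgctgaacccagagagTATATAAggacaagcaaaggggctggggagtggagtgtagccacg
Mup3 (chr4:62087298-62087497): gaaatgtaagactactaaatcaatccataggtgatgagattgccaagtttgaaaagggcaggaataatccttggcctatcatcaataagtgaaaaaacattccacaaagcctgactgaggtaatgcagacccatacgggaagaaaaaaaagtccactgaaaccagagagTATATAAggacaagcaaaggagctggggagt

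RefSeq promoters were found for 5 of the 7 members. TATATAA was present in 4 of those 5, all but Mup7, and in 3.24% of all 32851 promoters of the same length. AATCAATA was present in the central genes Mup7, Mup11 and Mup17 and in 0.755% of all promoters, and it was not in the windows of Mup3 and Mup21. Relative to the annotated start it began at -20 in Mup7, -126 in Mup11 and -149 in Mup17. The Mup7 window thus covers a stretch further upstream, and whether TATATAA lies beyond its end was not examined. TTCNNNGAA, the spaced palindrome STAT5 is known to bind, matched 0 of the 5 windows and 8.3% of all promoters, and TTGCNNAA, a core word of C/EBP sites, matched 0 of 5 and 10.8%. In local alignments Mup11 and Mup17 were 98.9% identical over 278 columns and Mup3 and Mup21 92.9% over 297, against 77.6% over 281 for Mup17 and Mup3.

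Other sex-biased liver genes were read in the same mouse. Of 14 male-biased genes outside the family, 11 were lowest of the 26 mice in mouse 626. Selenbp2, a selenium-binding protein gene, had 105 CPM there against a median of 1315 CPM in the other 25 mice. Cyp7b1, an oxysterol hydroxylase gene, had 38.1 CPM against 350.8, and Cyp4a12a, a fatty acid hydroxylase gene, had 35.1 CPM against 235.5. The 3 that were not lowest were the fatty acid elongase gene Elovl3, the protease inhibitor gene Serpina1e and the glutathione transferase gene Gstp2.

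Of 15 female-biased liver genes reported here, 8 were highest in mouse 626. Among these 8, Cyp2b13 had 1 read there and 0 in every other mouse, too few to rank, and Cyp3a44 had 5 reads against at most 2. Cyp2b9 had 62.3 CPM of the library total there and at most 0.740 CPM in each other mouse, and Cyp2a4, a close copy of which can share its reads, had 59.9 CPM against at most 0.781. Cyp17a1, a steroid hydroxylase gene, had 25.2 CPM against at most 4.67. Cyp3a41a, Cyp3a41b and Cyp3a16 had 0 reads in mouse 626, where 0 reads allow 3 reads at most. Xist had 0 CPM and Ddx3y 66.6 CPM in this mouse, within the range of the other 25 for both genes.

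**Figure D4:**
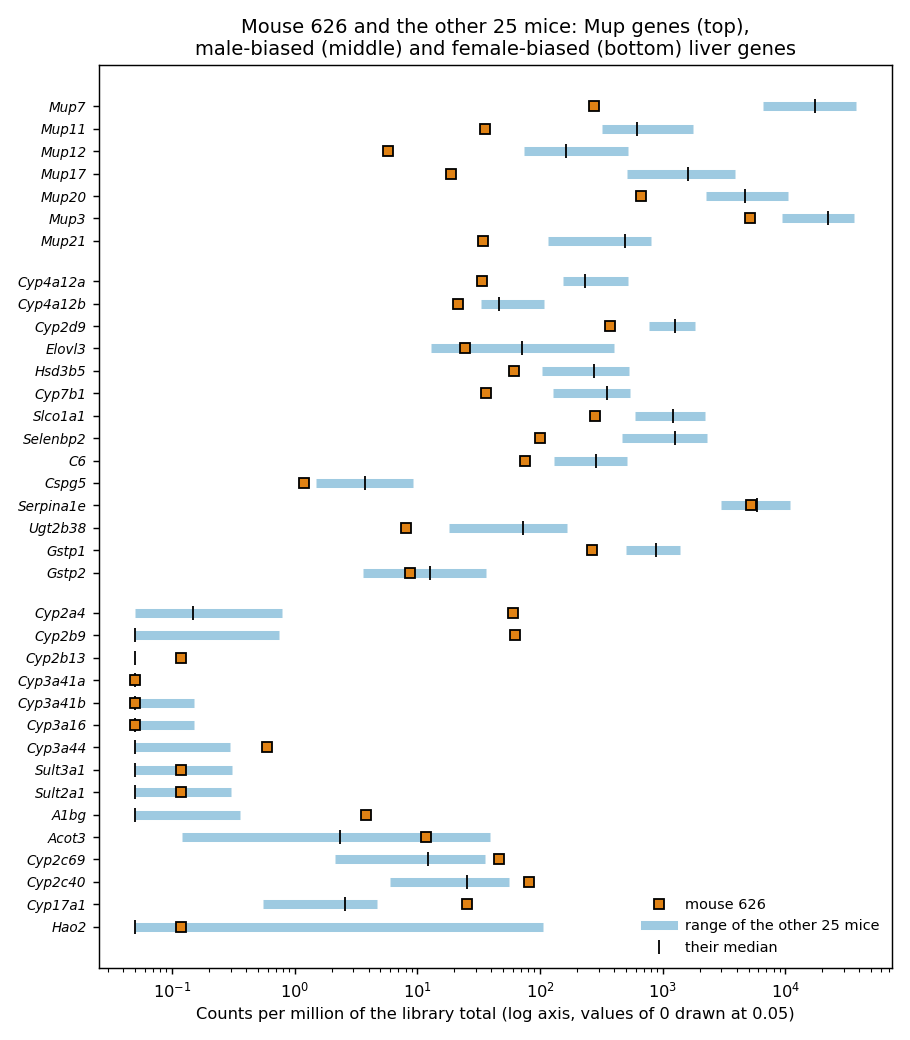
CPM of the library total (log axis, values of 0 drawn at 0.05) in mouse 626 and the range and median of the other 25 mice, for the 7 Mup genes, 14 other male-biased and 15 female-biased liver genes. Mouse 626 lies below the range for 7 of 7 Mup genes and 11 of 14 other male-biased genes, and above it for 8 of 15 female-biased genes. Of these 8, Cyp2b13 had 1 read and Cyp3a44 5 reads in mouse 626.

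Growth hormone signalling genes were measured beside them. The prolactin receptor gene Prlr had 188 CPM in mouse 626 and at most 103 CPM in the others. Socs2, a STAT5-induced feedback inhibitor, had 60.9 CPM against a median of 19.1 with a highest of 107.5, and Cish, another, had 4.95 CPM against a median of 23.9. The receptor gene Ghr had 498 CPM against a median of 700.8, and Stat5b had 86.1 CPM against 65.8. Of the 14 genes of that list tested 0 were lowest in mouse 626, and 0 of 17 transcription factor genes of hepatocytes were lowest or highest there.

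Of 12 hepatocyte markers, 3 were below the median of the other 25 mice in mouse 626 and the rest were above it. The log2 ratio of mouse 626 to that median had a median of 0.47 over the 12. The summed level of 12 markers was 137400 CPM against 58530 to 133400 CPM in the other 25 mice. The albumin gene Alb alone was 106200 CPM of the sum in mouse 626. Alb and the urea cycle gene Ass1 were the 2 markers highest there. The apolipoprotein gene Apob was second lowest of the 26 mice, at 6040 CPM against a median of 8272, and Cyp1a2 (260.5 against 335.9) and Glul (486.4 against 541.4) were also below the median. The 5 adipocyte markers summed to 147.8 CPM against 5.94 to 486 CPM, with the highest value in mouse 628, and the adiponectin gene Adipoq had 40.3 CPM. The 7 markers of steroid-producing cells summed to 4.08 CPM, with Cyp11a1, Cyp11b1, Cyp11b2, Cyp21a1 and Nr5a1 at 0. The part of these transcripts in the low Mup levels was not tested.

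Genes of related pathways were compared between doses on lists chosen for this family, and 0 genes of any list passed in edgeR in any of the 7 comparisons. Of the 14 other male-biased liver genes, 13 had negative log2 fold changes at 50 against 0 mg/kg (median -0.19) and 13 at 5 against 0 mg/kg (median -0.38), while 8 were negative at 0.5 against 0 mg/kg (median -0.016). Mouse 626, in which 11 of these 14 were lowest, is in the 5 mg/kg group, and without it 10 of 14 were negative at 5 against 0 mg/kg (median -0.27). Cspg5, a neural proteoglycan gene with male-biased liver expression, had the smallest trend p of that list, with a slope of -0.26 (adjusted p = 1 in edgeR). The 14 growth hormone signalling genes tested divided into 9 positive and 5 negative at 50 against 0 mg/kg, and 7 and 7 at 5 against 0 mg/kg. The 17 transcription factor genes divided into 9 and 8, and 11 and 6.

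Other lipocalins and secreted proteins of hepatocytes were set beside the Mup genes. Of 9 other lipocalin genes 9 were positive at 50 against 0 mg/kg (median 0.26) and 9 at 5 against 0 mg/kg (median 0.29). Of 20 genes of abundant secreted proteins, 18 were positive at 50 against 0 mg/kg (median 0.23) and 20 at 5 against 0 mg/kg (median 0.24). Mouse 626 was the highest mouse for 8 of these 20. Without it, 9 of the 9 lipocalin genes (median 0.23) and 18 of the 20 secreted protein genes (median 0.16) were positive at 5 against 0 mg/kg. At 0.5 against 0 mg/kg, where 5 of 7 Mup genes were positive, 8 of the 9 lipocalin genes (median 0.28) and 19 of the 20 secreted protein genes (median 0.43) were positive. The difference from the Mup genes was not tested. The 30 other Mup rows tested divided into 22 negative and 8 positive at 50 against 0 mg/kg (median -0.26) and 23 and 7 at 5 against 0 mg/kg (median -0.44), and 0 passed in edgeR. These counts share the mice at 0 mg/kg and the scaling of each library. Of the 4 female-biased genes tested 2 were positive at 50 against 0 mg/kg and 3 at 5 against 0 mg/kg (median 0.43). Without mouse 626, the highest mouse for 3 of the 4, 2 were positive at 5 against 0 mg/kg (median -0.075). Of 12 hepatocyte markers 9 were positive at 5 and at 50 against 0 mg/kg. Among marker lists of other cells, the 2 adipocyte genes tested (median 1.81) and the 2 genes of steroid-producing cells (median 3.79) were positive at 5 against 0 mg/kg, the dose of mice 626 and 628, and their part in the Mup values there was not tested. The medians without both mice were 0.0032 and 0.95. Stellate cell markers were positive for 10 of 10 genes at 5 against 0 mg/kg (median 0.30) and for 6 of 10 without mice 626 and 628 (median 0.026). Kupffer cell markers were negative for 9 of 10 genes at 5 against 0 mg/kg with all mice (median -0.18) and for 10 of 10 without both (median -0.26). Liver endothelial markers were negative for 6 of 10 at that dose and 8 of 10 at 50 against 0 mg/kg (median -0.095).

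The levels of the members were compared with one another over mice, on log2 CPM. Over the 21 pairs Spearman's rho was 0.521 to 0.908 over 26 mice and 0.462 to 0.897 over the 25 without mouse 626, and Pearson's r was 0.672 to 0.966 and 0.402 to 0.878. Adjusted permutation p-values over the 21 pairs were at most 0.00704 for rho over 26 mice, and the smallest unadjusted p, 1e-05, is the smallest that 100000 permutations can give. The permutations ignored dose and run and kept mouse 626. The members can share reads, share each library's scaling and were chosen with results known. These p-values cannot tell such sharing from a relation between the genes, and no conclusion is drawn from them. By rho the closest pair was Mup3 and Mup20 (rho = 0.908, r = 0.917), followed by Mup11 and Mup12 (rho = 0.904, r = 0.945). By r over 26 mice the closest was Mup7 and Mup12 (r = 0.966, rho = 0.892), and all 6 pairs among Mup7, Mup11, Mup12 and Mup17 had a higher r than Mup3 and Mup20. That order rested on mouse 626. Without it r was 0.874 for Mup3 and Mup20, 0.878 for Mup7 and Mup12, and 0.821 to 0.857 for the other pairs among the 4 central genes. Over 26 mice, pairs among these 4 genes had rho of 0.85 or more, and the loosest pair was Mup3 and Mup17 (rho = 0.521, r = 0.672). Without the 2 mice farthest from the median, r over the 21 pairs was 0.443 to 0.875. Within the run from 601 rho was 0.568 to 0.893, and within the run from 619 without mouse 626 it was 0.236 to 0.952. Near-identical copies can share reads, and the part of shared reads in these correlations was not tested.

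Outside the family, the genes most like the summed members were ranked by Spearman's rho of log2 CPM over the 26 mice, among 14232 genes of at least 1 CPM on average, as a description. Gm21320 (rho = 0.963), which the RefSeq table names Mup22, was left out as a Mup gene. The highest were Spcs1, a signal peptidase subunit gene (rho = 0.924), Sult2a8, a sulfotransferase gene (0.919), and Cycs, the cytochrome c gene (0.917). Mrps33, Ndufs4, Tmed7, Vamp7 and Slco1a1 followed with rho of 0.901 to 0.909, of which Slco1a1, an organic anion transporter gene, is in the male-biased list. The lowest were Ywhae (rho = -0.89), Psap (-0.89), Nub1 (-0.89) and Mrpl10 (-0.88). Without mouse 626 rho was 0.888 or more for the 8 highest and between -0.89 and -0.88 for the 4 lowest, all on the same libraries and scaling.

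The summed share moved with measures of the library. As a description, with no test since the members were chosen with results known, it was higher in mice with a higher share of counts from mitochondrially encoded genes (r = 0.842, rho = 0.869, n = 26). The relation had r = 0.871 within the later run (619) and 0.788 within the earlier one, and r = 0.805 without mice 605 and 619, the 2 farthest in mitochondrial share. It was lower in mice with a higher share of Alb (r = -0.70, rho = -0.68) and with more total counts (r = -0.66, rho = -0.62). For total counts r was -0.82 within the later run and -0.34 within the earlier one, and for Alb -0.86 and -0.48. Without the 2 farthest mice r was -0.74 for Alb and -0.62 for total counts. These shares have the same denominator, and the part of RNA quality or composition in the Mup share was not tested.

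**Figure D5:**
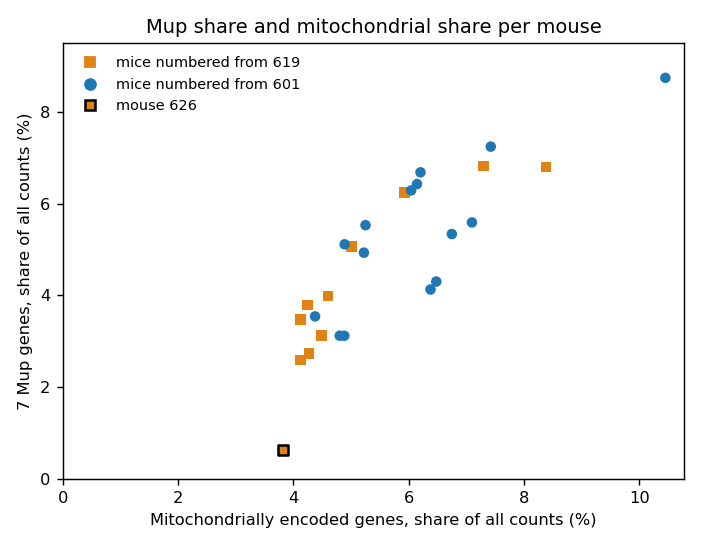
Share of all counts from the 7 Mup genes against the share from mitochondrially encoded genes (both in percent) for each of the 26 mice, with symbols for the 2 runs. The 2 shares rise together (r = 0.842), with mouse 605 highest and mouse 626 lowest in both.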

How the data were processed

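Liver RNA from 26 mice was measured as gene counts. The deposited values are raw read counts per gene for each mouse, which the authors made with bcl2fastq and featureCounts on mm10, per the submitters' processing notes. The aligner, annotation, versions, strand setting and treatment of reads that fit several genes are not given in the sources used here. Counts of all 26 mice in the combined table equalled those in the files of single mice. Library totals of 5433074 to 9088626 counts limit precision, and the filter kept 14415 genes with 99.7% of reads.

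Counts were tested with edgeR 4.0.16 (R 4.3.3, limma 3.58.1), using filterByExpr, TMM factors and the quasi-likelihood test with dose and run of mouse numbers as terms, over all 26 mice. The interaction used the 16 mice at 5 and 50 mg/kg. P-values were adjusted by Benjamini-Hochberg over all genes tested, with 0.05 as the threshold. The fit was checked on simulated counts. Log2 CPM used a prior count of 2. Correlations used 100000 permutations, two-sided. Tables and figures used pandas 2.3.3, numpy 2.4.6 and matplotlib 3.10.9.

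Alternatives were DESeq2 1.42.0, 3 other scalings, 2 other filters, no run term, each run alone, and leaving out mice. The 7 members and all gene lists were chosen with earlier results of these data known. The list counts without mice 626 and 628, the correlations, the library measures and the sex-biased genes in mouse 626 were chosen after the data had been seen. Named were the members, and from each list the genes with the smallest p in the trend or between runs. Genes named for their level in mouse 626 were chosen after their values were seen. Likeness took the 8 highest and 4 lowest rho. Within a dose, the 76 pairs of mice differed beyond counting noise (chi-square per degree of freedom 12.0 to 124), so no library was counted as a repeat of another. Some genes of the lists are not reported here.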

Additional observations from a re-analysis of the deposited data

Results flagged for a closer look

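At 5 mg/kg mouse 626 was the lowest of 8 mice and lay far from the other 7 on the log2 scale, beyond the gap allowed by Dixon's test, for 6 of the 7 genes and for the summed share. Its levels were 289.8 CPM for Mup7, 37.4 for Mup11, 6.06 for Mup12, 19.5 for Mup17, 701.3 for Mup20 and 35.9 for Mup21, and the 7 genes took 0.621% of all counts. The medians of the other 7 mice at that dose were 15900 CPM for Mup7, 549.9 for Mup11, 140 for Mup12, 1496 for Mup17 and 3878 for Mup20, and the next lowest of them had 160.3 CPM of Mup21. Mup3 was lowest in the same mouse, at 5409 CPM, and was not far enough from mouse 628 at 8137 CPM. Of 32 groups of values examined, chance alone gives such a gap in about 1 in 20, and the 7 values come from 1 library and are not independent. Mouse 626 was known to be low in Mup counts before these groups were examined, so its flags were settled in advance. No conclusion is drawn from that rate.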

How the results depend on the processing

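Under every alternative 0 members passed the threshold. Of 1652 member values recomputed, 92 changed sign, at most 1.02 in size, and the smallest adjusted p of a member was 0.379 in edgeR (Mup3 between runs without 0 mg/kg replicate 5, log2 -0.53, up to 0.949 in its other settings). The causes of the sign changes were not tested. In the run from 601 alone, Mup21 had 0.064 at 50 against 0 mg/kg, Mup3 0.38 at 0.5 against 0 mg/kg, and Mup3 -0.092, Mup11 -0.010 and Mup20 -0.32 at 50 against 5 mg/kg. In the run from 619 alone, values at 50 against 0 mg/kg were 0.12 for Mup11 and 0.029 for Mup12. There, at 0.5 against 0 mg/kg, they were -1.02 for Mup7, -0.41 for Mup11, -0.48 for Mup12, -0.44 for Mup17 and -0.91 for Mup21, and trend slopes were 0.12 for Mup11, 0.097 for Mup12 and 0.016 for Mup20. Scaling by the library total alone, which put the median of all genes at 0.5 against 0 mg/kg at -0.17, gave -0.063 for Mup7, -0.14 for Mup17 and -0.073 for Mup21 there, 0.018 for Mup17 between runs and 0.026 for Mup21 in the interaction. Scaling without Mup rows gave 0.0065 for Mup21 in the interaction, and no filter beyond 1 read gave 0.00077 for Mup17 between runs. Without mice 626 and 628, Mup7 had -0.042 at 50 against 5 mg/kg, Mup17 0.11, Mup20 0.037 and Mup21 0.016 between runs, and Mup7 -0.29 and Mup12 -0.31 in the interaction. Leaving out 1 mouse at a time gave these ranges that cross 0. At 0.5 against 0 mg/kg they were -0.21 to 0.23 for Mup3, -0.14 to 0.33 for Mup7, -0.17 to 0.37 for Mup11, -0.14 to 0.59 for Mup12, -0.37 to 0.28 for Mup17 and -0.069 to 0.31 for Mup21. At 50 against 0 mg/kg they were -0.26 to 0.22 for Mup3, -0.097 to 0.064 for Mup12 and -0.23 to 0.15 for Mup21. At 50 against 5 mg/kg they were -0.0047 to 0.39 for Mup7 and -0.37 to 0.13 for Mup17. Trend slopes were -0.12 to 0.027 for Mup3 and -0.12 to 0.0077 for Mup21. Between runs they were -0.17 to 0.20 for Mup17 and -0.23 to 0.0085 for Mup21. In the interaction, over the 16 mice of its fit, they were -0.15 to 0.67 for Mup7, -0.37 to 0.50 for Mup12, -0.82 to 0.24 for Mup17 and -0.41 to 0.35 for Mup21. Summing all 48 Mup rows gave 6.93% at 0 mg/kg. Over all genes, calls ranged from 0 to 4 at 50 against 0 and at 5 against 0 mg/kg, 0 to 33 at 0.5 against 0 mg/kg (33 in the run from 601 alone), 0 to 3 in the trend, 2 to 108 between runs (108 in DESeq2) and 0 to 2 in the interaction. No paired analysis was possible because mouse numbers are not shared between doses and replicate numbers only name a mouse.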
